A study of Mus musculus with 2 samples.

Results

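Plasma proteins such as albumin and alpha-fetoprotein are made mainly by hepatocytes and, before birth, also by the visceral endoderm of the yolk sac. They are secreted into the blood, where they carry hormones and lipids, keep up osmotic pressure, and form or restrain clots. In the mouse the fetal gut epithelium shares endodermal origin with the liver and is known to express some of the same genes, with Afp among them. The genes described here are 10 of this kind, out of 43346 gene identifiers in the tables: Afp, Alb, Ttr, Ahsg, Fgb, Serpinc1, Apoh, Ambp, Itih2 and F2. They are secreted proteins of liver type, chosen by their measured TPM in the intestine and by how that level differed between the libraries. Their levels and their ratios between libraries are therefore given as a description, with no test.

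Intestine was taken from B6NCrl mouse embryos at embryonic day 16.5, males and females pooled, and profiled by sequencing of total RNA over 200 nt. The series holds 2 libraries of this 1 group, called replicate 1 and replicate 2, and each began with 10 ng of RNA from its own tissue pool. The pool of replicate 2 came from 41 embryos, while for replicate 1 the labels say only that intestines were pooled.

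The libraries held 41279206 and 40758084 expected counts over genes, an expected count being the estimated number of reads of a gene. Levels are in TPM, a unit that corrects for transcript length and scales every library to the same total. Gut identity was present in both libraries: all 15 genes of a fixed epithelial list reached a TPM of 1 in both, led by Lgals4, a lectin of the intestinal epithelium, at 2141 ± 106 TPM (SD, n = 2). A gene was called apart between the libraries when its TPM differed at least 1.5-fold and the intervals of TPM deposited by the authors did not overlap. This was asked of the 13509 protein-coding genes whose TPM averaged 1 or more, of which 95.9% lay within 1.5-fold. With 1 library on each side there is no test of this difference.

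Near-start sequences were searched for short motifs, and are printed for the 3 members with a match to a palindromic motif before the RefSeq start site. The motif searched was GTTAAT, any 1 base, then ATTAAC, and capitals mark its matches on either strand with up to 2 mismatches. Each sequence runs from 250 bases before to 50 bases after the gene's RefSeq start on GRCm38.p6 (mm10), written 5′ to 3′ along the gene's strand: Afp is chr5:90490464-90490763 (plus strand), Alb chr5:90460620-90460919 (plus strand) and Fgb chr3:83049814-83050113 (minus strand).
Afp: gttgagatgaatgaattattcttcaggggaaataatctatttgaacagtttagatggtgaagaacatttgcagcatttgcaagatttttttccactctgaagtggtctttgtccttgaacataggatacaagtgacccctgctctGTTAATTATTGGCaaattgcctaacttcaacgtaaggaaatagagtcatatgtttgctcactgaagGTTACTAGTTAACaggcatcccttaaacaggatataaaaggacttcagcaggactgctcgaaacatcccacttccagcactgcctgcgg
Alb: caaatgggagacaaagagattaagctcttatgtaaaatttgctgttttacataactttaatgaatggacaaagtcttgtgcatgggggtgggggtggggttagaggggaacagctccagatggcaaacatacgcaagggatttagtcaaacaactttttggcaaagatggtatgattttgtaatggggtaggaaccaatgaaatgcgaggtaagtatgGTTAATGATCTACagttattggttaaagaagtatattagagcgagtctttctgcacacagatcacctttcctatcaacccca
Fgb: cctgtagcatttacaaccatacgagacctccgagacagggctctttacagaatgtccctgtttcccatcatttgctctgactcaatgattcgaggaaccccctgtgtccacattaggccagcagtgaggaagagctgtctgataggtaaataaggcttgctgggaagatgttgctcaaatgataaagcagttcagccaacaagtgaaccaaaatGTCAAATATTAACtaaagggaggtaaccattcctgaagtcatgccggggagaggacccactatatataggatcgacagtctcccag

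The matches lie at different places. Alb has 1 match, with 19 bases between it and the start. Afp has 2, with 92 and 26 bases between them and the start. The Afp window also holds TATAAA, the core of a TATA box. Fgb has 1 match, with 23 bases between it and the start. F2 has 1 that begins after the RefSeq start, at base 1 counted from it as 0. The RefSeq start of F2 lies 43 bases upstream of its GENCODE start, so this match lies before the GENCODE start. In all, 4 of the 9 members with a RefSeq window held this palindrome, against 1.36% of 32851 windows of the same length. A C/EBP core, TTGCNNAA on either strand, was found in 6 of the 9 (Serpinc1, Itih2, Fgb, Alb, Afp and Ahsg), against 10.8% of all windows. The FOXA core TGTTTNC, also on either strand, was found in 6 of the 9 (Fgb, Ambp, Alb, Afp, Apoh and Ahsg), against 20.5% of all windows. TATAAA was in 1 of the 9, against 13.6%. None of these motifs overlapped a match to the palindrome in the members, and a match is only a match of letters. For Apoh the RefSeq start lay 51943 bases from the outermost GENCODE start, so its window is that of the inner start. The RefSeq starts of Ahsg, Itih2 and Ambp lay 738, 713 and 627 bases inside the GENCODE start. Those of Alb and Afp lay 27 and 23 bases upstream of it. All distances above are counted from the RefSeq start.

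Transcription factors of liver type were measured in the same libraries. The nuclear receptor Hnf4a stood at 73.9 TPM in replicate 1 and 75.4 TPM in replicate 2, Foxa3 at 26.4 and 24.4 TPM, and Cebpa at 7.44 and 9.32 TPM. Of 23 transcription factors of liver and yolk sac, 21 reached a TPM of 1 in both libraries, and none of these 21 was called apart. Zhx2, a repressor that silences Afp in the mouse liver after birth, was at 2.80 TPM in replicate 1 and 3.28 TPM in replicate 2, and Zbtb20, another repressor of Afp there, was at 15.6 and 13.7 TPM.

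All 10 plasma protein genes were detected, meaning a TPM of at least 1 in both libraries, and all passed the filter on mean TPM. Their levels span from Afp at 230.2 ± 64.5 TPM down to Itih2 at 4.32 ± 3.13 TPM (SD, n = 2). Summed, they made up 603 TPM in replicate 1 and 376 TPM in replicate 2, or 0.0603% and 0.0376% of all TPM. Between libraries, 7 of the 10 were called apart and higher in replicate 1, none was called apart and higher in replicate 2, and 3 were not apart. Over all compared genes, 0.829% were apart and higher in replicate 1 and 1.75% apart and higher in replicate 2. Because these same ratios helped to choose the genes, nothing is read from that count. In bulk tissue, more cells of a type and more RNA per cell cannot be told apart.

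**Figure D1:**
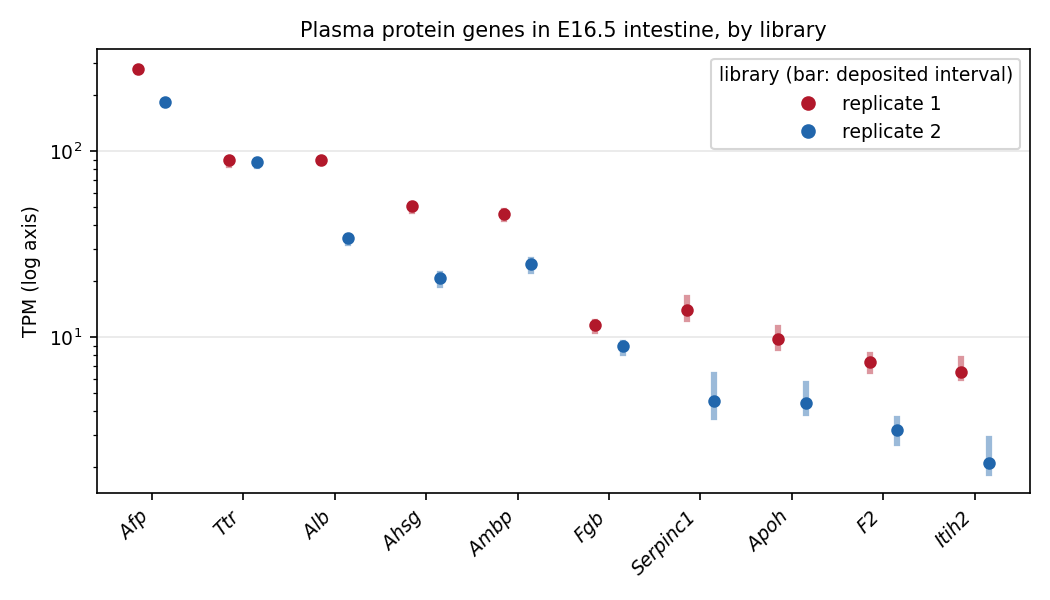
TPM (log axis) of the 10 plasma protein genes in each library, ordered by mean level, with red points for replicate 1 and blue points for replicate 2. Vertical bars are the TPM intervals deposited by the authors. Ttr is the gene whose intervals overlap, at 89.4 TPM in replicate 1 and 88.0 TPM in replicate 2.

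Carriers come first in abundance. Afp (ENSMUSG00000054932.3; mm10 chromosome 5, 90490737 to 90508907, plus strand) encodes alpha-fetoprotein, the main plasma protein of the fetus. It stood at 276 TPM in replicate 1 and 185 TPM in replicate 2, rank 682 among protein-coding genes by mean. That is 1.49-fold higher in replicate 1, just under the 1.5-fold minimum, with deposited intervals apart. In counts scaled to library size, without length, the ratio was 1.52, with a 95% exact (Clopper-Pearson) interval of 1.48 to 1.56. Such intervals cover counting error only, since copies made by PCR are not separate molecules. The Afp TPM lies slightly above its own deposited interval in both libraries, whereas the deposited posterior means, 270.4 TPM in replicate 1 and 181 TPM in replicate 2, lie within them.

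Alb (ENSMUSG00000029368.9; chromosome 5, 90460897 to 90476602, plus strand), the gene for albumin, stood at 90.4 TPM in replicate 1 and 34.2 TPM in replicate 2, a ratio of 2.64. The depth behind it was 5169 and 1900 counts, and the count ratio of 2.69 had a 95% exact interval of 2.55 to 2.83. Alb ends 14134 bases before Afp begins, and both are read from the plus strand. Their neighbour Afm, which encodes the vitamin E carrier afamin, begins a further 10024 bases on. Afm was at 10.2 TPM in replicate 1 and 11.5 TPM in replicate 2, on the other side of equal from Alb and Afp. The deposited intervals of Afm overlap, so its direction is not resolved. Gc, the vitamin D binding protein and another gene of the albumin family on this chromosome, was at 23.1 TPM in replicate 1 and 16.8 TPM in replicate 2. Among the 4 genes, then, the ratio of replicate 1 to replicate 2 ran from 0.884 for Afm through 1.38 for Gc and 1.49 for Afp to 2.64 for Alb.

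Afp exceeded Alb in both libraries, 3.05-fold in replicate 1 and 5.40-fold in replicate 2, both in TPM. As a log2 ratio this was 2.02 ± 0.581 (SD, n = 2). Afp held 45.8% of the summed TPM of the 10 genes in replicate 1 and 49.1% in replicate 2. The smallest exact 2-sided sign-flip p with 2 libraries is 0.5, so no p-value is given for the order.

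Ttr (ENSMUSG00000061808.3; chromosome 18) encodes transthyretin, which carries thyroxine and, bound to retinol binding protein, vitamin A. It stood at 89.4 TPM in replicate 1 and 88.0 TPM in replicate 2, a ratio of 1.02 with overlapping intervals whose log2 value turned negative (-0.03 at the lowest) under TMM, DESeq2 and spike-in scaling, and was the one member whose count ratio had an interval that spans 1 (0.981 to 1.09). Of the compared genes, 48.1% had a log2 ratio at least as high. Its ratio was near the middle of all genes, while each of the other 9 members was among the top 3.63%. These same ratios helped to choose the members, so nothing is read from those places. Rbp4, the retinol binding protein that travels with transthyretin, was at 66.7 TPM in replicate 1 and 44.5 TPM in replicate 2, a ratio of 1.501 with intervals apart. Ttr therefore stood 1.34-fold above Rbp4 in replicate 1 and 1.98-fold above it in replicate 2. In replicate 2 Ttr was the second of the 10 genes, with 23.4% of their TPM, and in replicate 1 it was level with Alb, with 14.8%.

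**Figure D2:**
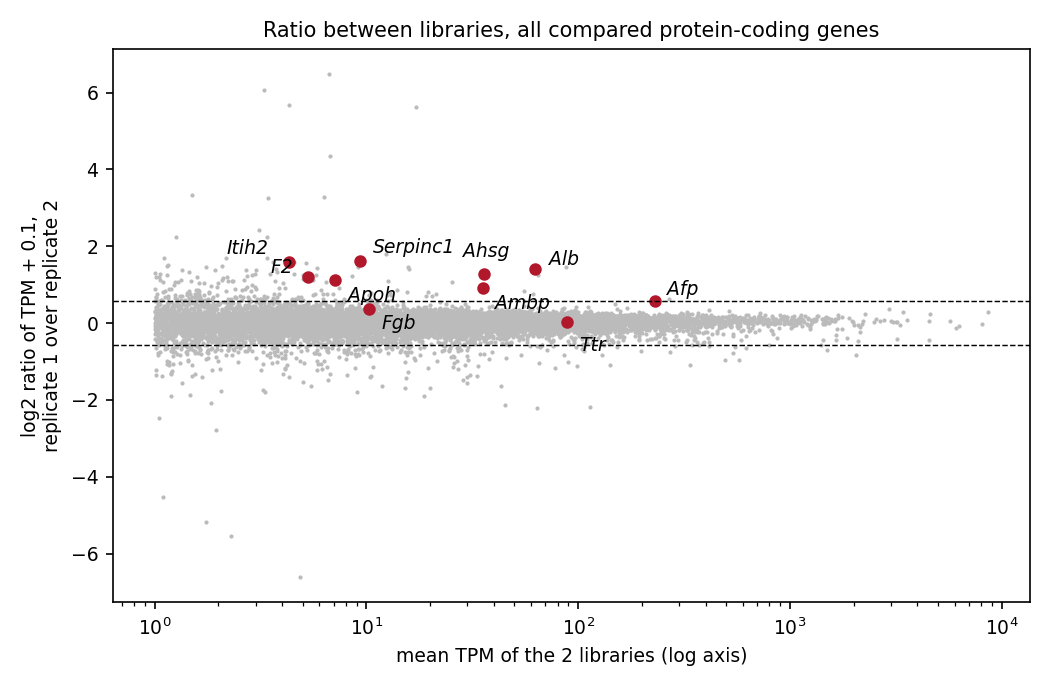
Log2 ratio of TPM + 0.1 of replicate 1 over replicate 2, against mean TPM (log axis), with 1 grey point for each of 13509 compared protein-coding genes and red points for the 10 plasma protein genes. Dashed lines mark 1.5-fold. Ttr sits at 0.02 and Fgb at 0.38 within the lines, Afp sits just under the upper line at 0.58, and the remaining 7 lie above it.

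Ttr is also a product of pancreatic islet cells, so the islet list was read beside it. The 10 compared islet genes were not called apart in either direction, with a median ratio of 0.794 and a summed level over all 13 genes of 419 TPM in replicate 1 and 519 TPM in replicate 2. Insulin Ins2 was at 202 TPM in replicate 1 and 263 TPM in replicate 2, and glucagon Gcg at 57.1 and 72.9 TPM. In whole intestine these levels need not come from islet cells alone. Whether islet cells account for part of the Ttr level was not tested.

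Ahsg, Ambp and Itih2 are proteins that bind mineral, protease or matrix. Ahsg (ENSMUSG00000022868.5; chromosome 16, 22891277 to 22899449, plus strand) encodes fetuin-A, an inhibitor of calcification that is abundant in fetal plasma. Ahsg stood at 51.1 TPM in replicate 1 and 20.9 TPM in replicate 2, a ratio of 2.45. Its relative Fetub had 12 counts in replicate 1 and 0 in replicate 2, where a count of 0 allows up to 3. Kng1, the kininogen of the same protein superfamily, was at 13.5 TPM in replicate 1 and 4.83 TPM in replicate 2, and its near-identical copy Kng2 at 0.650 and 0.560 TPM. The split of reads between the kininogens is uncertain.

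Ambp (ENSMUSG00000028356.4; chromosome 4, 63143275 to 63154799, minus strand) encodes a precursor that is cut into alpha-1-microglobulin and bikunin, a protease inhibitor. It stood at 46.3 TPM in replicate 1 and 24.8 TPM in replicate 2, a ratio of 1.87. Bikunin is joined to heavy chains, of which Itih2 (ENSMUSG00000037254.14; chromosome 2, 10094593 to 10131396, minus strand) encodes one. Itih2 stood at 6.53 TPM in replicate 1 and 2.10 TPM in replicate 2, a ratio of 3.11 from 571 and 180 counts. The heavy chain gene Itih3 had a ratio of 2.24, at 6.92 TPM in replicate 1 and 3.09 TPM in replicate 2. Itih4 was at 2.60 and 0.890 TPM, a ratio of 2.92, and Itih1 lay under the filter at 0.920 and 0.430 TPM. Itih5, a heavy chain gene expressed outside the liver, differed from these: it was level at 10.7 TPM in replicate 1 and 10.6 TPM in replicate 2. Tnfaip6, whose product moves heavy chains onto hyaluronan, was at 1.98 TPM in replicate 1 and 1.83 TPM in replicate 2. The TPM of Ambp exceeded that of Itih2 7.09-fold in replicate 1 and 11.8-fold in replicate 2.

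Fgb (ENSMUSG00000033831.5; chromosome 3, 83040141 to 83049863, minus strand) encodes the beta chain of fibrinogen, the protein that polymerises into a clot. It stood at 11.7 TPM in replicate 1 and 8.99 TPM in replicate 2, a ratio of 1.30 with intervals apart, below the minimum of 1.5. The genes of all fibrinogen chains lie within 42140 bases. Fga, the alpha chain, was at 16.4 TPM in replicate 1 and 9.88 TPM in replicate 2, a ratio of 1.66. Fgg, the gamma chain, was at 12.01 TPM in replicate 1 and 5.04 TPM in replicate 2, a ratio of 2.38. The chains are assembled in equal numbers in the protein, but the ratio of Fgb to Fgg on the TPM scale was 0.974 in replicate 1 and 1.78 in replicate 2. Fga and Fgg were called apart and Fgb was not.

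**Figure D3:**
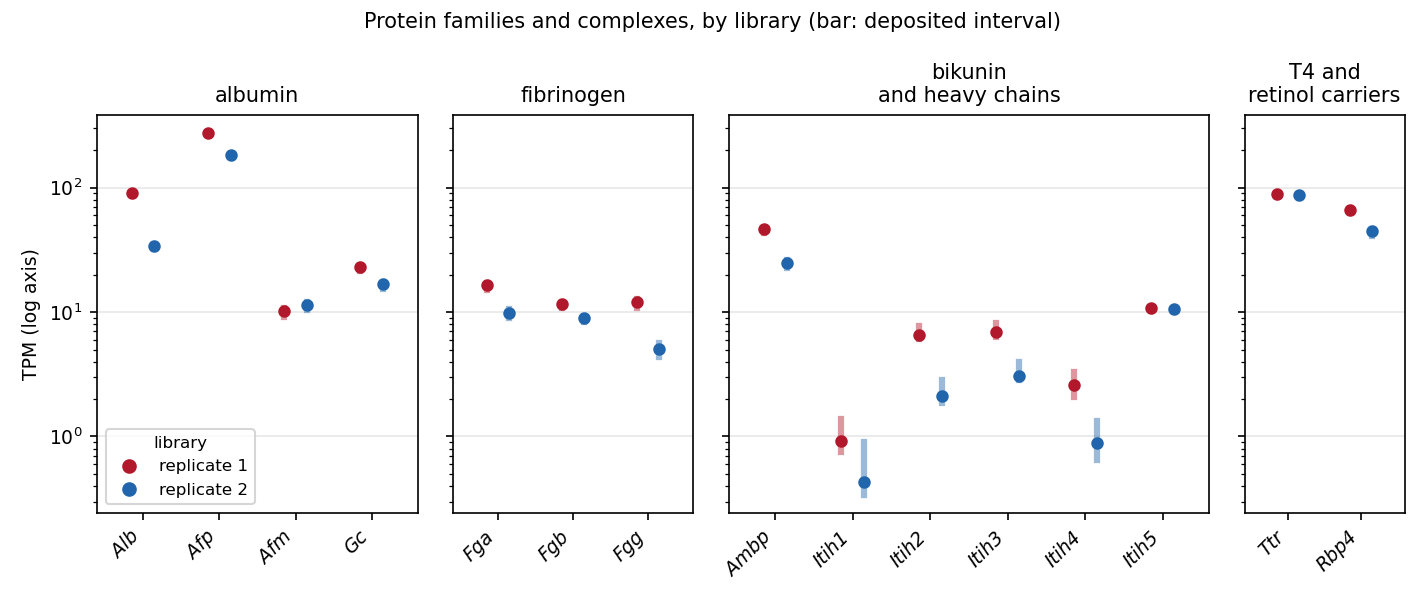
TPM (log axis) of genes of the albumin family, the fibrinogen chains, bikunin with heavy chains, and the carriers of thyroxine (T4) and retinol, with red points for replicate 1 and blue points for replicate 2. Bars are the deposited intervals. Afm, Itih5 and Ttr are level between the libraries, while Alb, Fgg and Itih2 stand 2.64-fold, 2.38-fold and 3.11-fold higher in replicate 1.

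F2 (ENSMUSG00000027249.11; chromosome 2, 91625320 to 91636414, minus strand) encodes prothrombin, the precursor of the protease that cuts fibrinogen. It stood at 7.41 TPM in replicate 1 and 3.18 TPM in replicate 2, a ratio of 2.33 from 415 and 172 counts. Receptors and regulators of thrombin were level: of 10 genes, 9 were compared and none was called apart, with a median ratio of 1.06. Their highest members were the thrombin inhibitor Serpine2 at 63.7 ± 4.29 TPM, the endothelial cofactor thrombomodulin Thbd at 39.9 ± 0.113 TPM and the receptor F2r at 35.5 ± 0.488 TPM, and the lowest was the receptor F2rl2 at 0.250 ± 0.113 TPM (SD, n = 2).

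Serpinc1 (ENSMUSG00000026715.8; chromosome 1, 160978585 to 161005863, plus strand) encodes antithrombin, which inhibits thrombin and factor Xa. The gene stood at 14.1 TPM in replicate 1 and 4.56 TPM in replicate 2, a ratio of 3.09. In counts scaled to library size, without length, the ratio was 2.13 (95% exact interval 1.83 to 2.47). The mean transcript length behind the TPM was 1463 bases in replicate 1 and 2114 bases in replicate 2. Serpinc1-201, the longest transcript at 4970 bases, held 279.9 counts in replicate 1 and 195.8 in replicate 2, a depth-corrected ratio of 1.41. All other Serpinc1 transcripts together held 286.1 counts in replicate 1 and 66.9 in replicate 2, a depth-corrected ratio of 4.22. Exons of Zbtb37, on the other strand, cover 2942 bases (59.2%) of Serpinc1-201. The labels do not say whether strand was kept, so reads of the pair cannot be told apart. Zbtb37 itself was at 2.82 TPM in replicate 1 and 3.60 TPM in replicate 2.

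Apoh (ENSMUSG00000000049.7; chromosome 11, 108343354 to 108414396, plus strand) encodes beta-2-glycoprotein I, which binds phospholipid surfaces. It stood at 9.81 TPM in replicate 1 and 4.45 TPM in replicate 2, a ratio of 2.20 from 307 and 135 counts. Ahsg and Apoh also have exons that overlap a gene on the other strand, but over 62 bases of Ahsg-201 (4.18%) and 30 bases of the minor transcript Apoh-202. The other 7 members have no exon overlap with another gene in GENCODE M21.

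Transcript tables, which the choice of genes did not use, gave 1 annotated transcript for Afp, Alb, Ttr, Ahsg and Fgb. For 4 of the 5 members with several, a single coding transcript dominated in both libraries: F2-201 with 99.2% ± 0.552 of the gene's TPM, Itih2-201 with 99.1% ± 1.21, Ambp-201 with 99.1% ± 0.0919 and Apoh-201 with 96.5% ± 0.219 (SD, n = 2). Serpinc1 was the exception. Its leading transcript by mean share, Serpinc1-204, is annotated as a target of nonsense-mediated decay and held 42.7% in replicate 1 and 39.6% in replicate 2. The short coding transcript Serpinc1-205 held 42.7% in replicate 1 and 16.3% in replicate 2, and Serpinc1-201 held 13.9% and 30.8%.

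The remaining plasma protein genes were read from 8 fixed lists of carriers, clotting factors, protease inhibitors, complement and apolipoproteins. Of 85 matched genes, 58 were compared. Of these, 20 (34.5%) were apart and higher in replicate 1, 5 (8.62%) were apart and higher in replicate 2, and 33 were not apart. Over all compared genes the shares were 0.829% and 1.75%. The median log2 ratio was 0.35 against 0.01 over all compared genes. The lists were chosen with earlier results of these data known, so nothing is read from these shares. Transferrin Trf, the iron carrier and the most abundant of the other carriers, stood at 327 TPM in replicate 1 and 212 TPM in replicate 2. Serpina6, which binds corticosteroids, was at 77.2 TPM in replicate 1 and 45.9 TPM in replicate 2. The heme carrier Hpx (ratio 2.48) and the lipocalin Apom (ratio 2.16) were apart in the same direction. The acid glycoprotein genes Orm2 and Orm3 had no count in either library.

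Within these lists the direction differed between genes of 1 kind. Among apolipoproteins, Apoa2 was at 129 TPM in replicate 1 and 47.0 TPM in replicate 2, and Apoc4, Apof and Lcat, the enzyme that esterifies cholesterol on lipoproteins, were also apart and higher in replicate 1. In the other direction Apoa4 was at 1477 TPM in replicate 1 and 2618 TPM in replicate 2, and Apob, Apoc2 and Apoc3, components of the chylomicrons that the gut secretes, were apart and higher in replicate 2. Among clotting factors, F12 was at 3.38 TPM in replicate 1 and 0.970 TPM in replicate 2, a ratio of 3.48, whereas F10 was at 23.6 TPM in replicate 1 and 36.6 TPM in replicate 2, 1.55-fold higher in replicate 2. Plasminogen Plg had a ratio of 2.75, and its inhibitor Serpinf2 was not apart at 28.0 TPM in replicate 1 and 19.8 TPM in replicate 2. Of the alpha-1-antitrypsin copies Serpina1a to Serpina1e none was apart, and their near-identical sequences leave the split of reads between them uncertain.

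**Figure D4:**
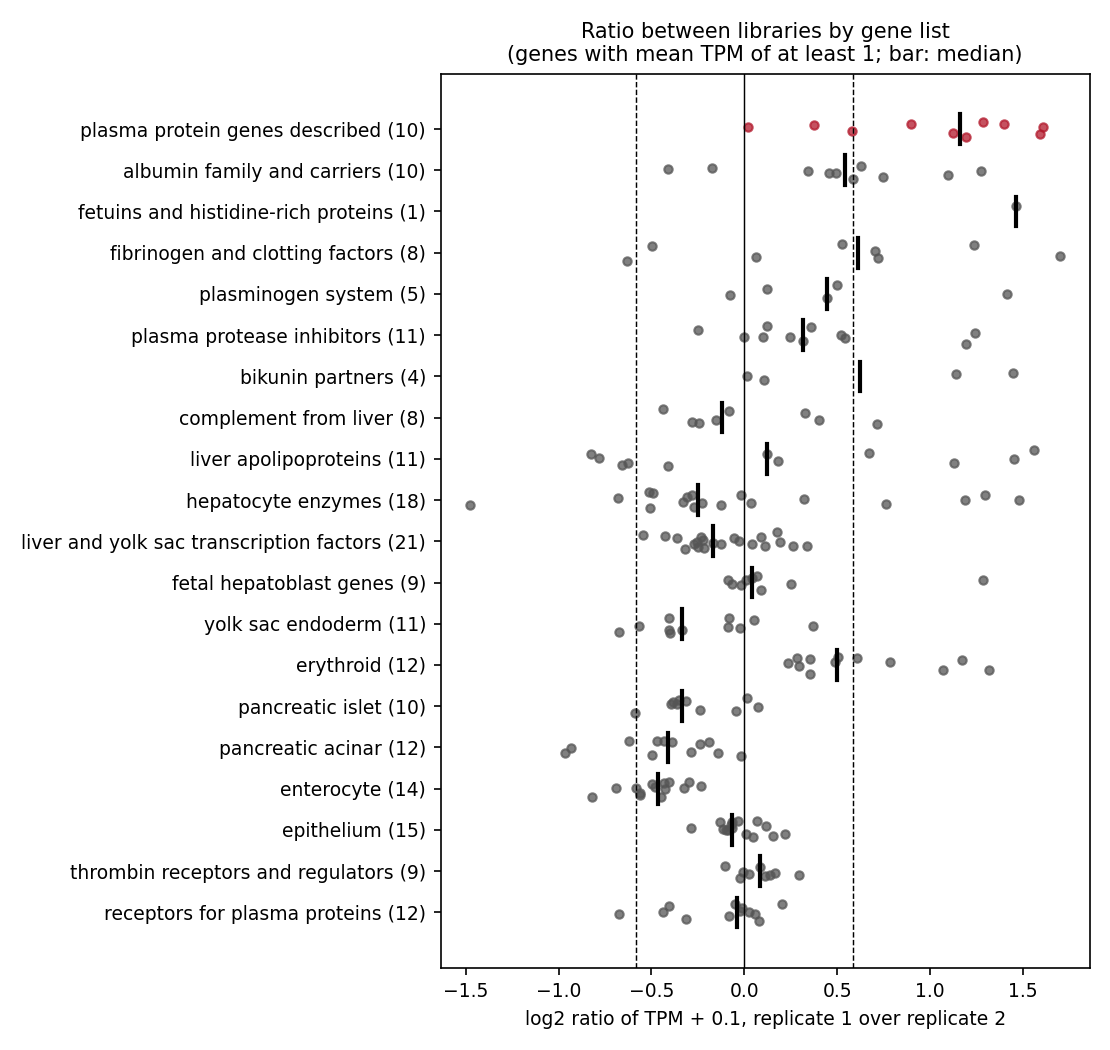
Log2 ratio of TPM + 0.1 of replicate 1 over replicate 2 for each compared gene, by list, with the number of genes in brackets, a thick bar at the median and dashed lines at 1.5-fold. The plasma protein genes described (red) have a median of 1.16, against -0.25 for hepatocyte enzymes, of which Bhmt, Uox and Gys2 nevertheless lie right of the upper dashed line, and -0.17 for the transcription factors. All 12 erythroid genes lie right of 0.

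Intracellular genes of hepatocytes were read beside the secreted proteins. Of 34 fixed enzymes, transporters and receptors, 18 were compared. Only Bhmt, a methyltransferase, was apart and higher in replicate 1, at 1.74 TPM against 0.560 TPM in replicate 2, and G6pc and the bile salt pump Abcb11 were apart and higher in replicate 2. The list summed to 1275 TPM in replicate 1 and 1623 TPM in replicate 2, with Ass1 and Cps1, which the intestine also expresses, among its 3 highest. Of the 10 genes fixed as defining for hepatocytes, Cyp7a1 had no count in either library, Tat had 1 count in each, and Hpd was highest at 7.84 TPM in replicate 1 and 8.55 TPM in replicate 2. Uox, the urate oxidase, was at 1.47 TPM in replicate 1 and 0.540 TPM in replicate 2 and lay just above the filter without being called apart. The liver glycogen synthase Gys2 stood at 1.45 TPM in replicate 1 and 0.580 TPM in replicate 2. Bhmt, Uox and Gys2, all low, were more than 1.5-fold higher in replicate 1, as were 7 of the plasma protein genes, although the intervals of Uox and of Gys2 overlapped between the libraries.

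Several other cell lists moved with the members or against them. The erythroid list, 14 matched genes, summed to 21734 TPM in replicate 1 and 17766 TPM in replicate 2, and all 12 compared genes were higher in replicate 1, with 5 called apart, Slc4a1, Klf1, Epb42 and Gata1 among them. The enterocyte list, 16 genes, summed to 6078 TPM in replicate 1 and 8561 TPM in replicate 2, and 3 of 14 compared genes were apart, all higher in replicate 2. The pancreatic acinar list, 13 genes, summed to 8101 TPM in replicate 1 and 10726 TPM in replicate 2, with 3 of 12 apart and higher in replicate 2, and its defining gene Ctrb1, a chymotrypsinogen, stood at 1610 and 2111 TPM. The part of blood cells, liver tissue, gut epithelium or pancreas in the member ratios was not tested. Genes of the fetal hepatoblast list were nearly level at 4840 TPM in replicate 1 and 4691 TPM in replicate 2, a sum led by H19, Krt8 and Epcam. Krt8, Krt18 and Epcam are also on the epithelial list, so the sum does not measure hepatoblasts alone. Ahsg, which the hepatoblast list shares with the members, was the 1 of 9 called apart. In the yolk sac endoderm list, Cubn alone of 11 was apart, higher in replicate 2, and that list summed to 1155 TPM in replicate 1 and 1479 TPM in replicate 2. Most of that sum was Spink1, at 748 TPM in replicate 1 and 987 TPM in replicate 2, so the sum mainly follows that gene.

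Receptors that take up plasma proteins were mostly level: of 12 compared, 11 were not apart and Cubn was the exception. The highest were the IgG and albumin receptor Fcgrt at 325 ± 69.5 TPM and Amn at 219 ± 43.3 TPM, and the lowest was Cd163 at 0.345 ± 0.0495 TPM (SD, n = 2).

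By distance over log2(TPM + 0.1) in the 2 libraries, the protein-coding genes nearest to Afp were Tomm22 (0.258), Birc5 (0.268) and Psma5 (0.294). Those nearest to Alb were Gm20721 (0.161), Car2 (0.415) and Serpina6 (0.480). With only 2 libraries this measures likeness of level and ratio and nothing more.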

How the data were processed

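Per the labels, total RNA over 200 nt was extracted with the mirVana method. Per the text deposited beside the tables, reads were assigned to GENCODE M4 features on mm10; the aligner and quantifier are not given in the sources. Expected counts, as deposited, estimate the reads of a feature, with shared reads divided. The deposited TPM values divide these by effective length and scale the total, spike-ins included, and a posterior mean of TPM is given too. The bounds of the TPM interval, a deposited signal-type value, have no stated level. A percent column deposited with the transcripts holds the part of the gene's TPM in each.

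Symbols, coordinates and gene types came from GENCODE M21 (98.0% of 43346 identifiers matched). Features that name no gene (0.000147% and 0.000157% of counts) stayed out. Ratios use TPM, log2 ratios TPM + 0.1. Of 267 listed genes, 263 matched a symbol. Named genes are the members, the 3 highest and the lowest of lists, the factors of the liver list and the nearest genes in pattern; others were named after their values were seen, as apart or as partners of a member. The members and lists were chosen with earlier results of these data known. Promoter windows are from RefSeq (GRCm38.p6). Scaling alternatives used edgeR 4.0.16 TMM and DESeq2 1.42.0 size factors on rounded counts (R 4.3.3), and other steps Python 3.11.15 with scipy 1.17.1, pandas 2.3.3 and numpy 2.4.6. The calls and the motif search were tested on simulated data. The pools have separate biosample labels but share a donor label, so the spread between them may be partly technical. Some listed genes are not reported here by name.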

Additional observations from a re-analysis of the deposited data

How the results depend on the processing

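The count of 7 genes apart and higher in replicate 1 was the same with posterior mean TPM, TMM scaling, DESeq2 size factors, scaling on spike-ins, no interval condition and no filter. It was 8 in counts scaled to library size without length, where Afp passed, 6 at a 2-fold minimum, where Ambp dropped out, and 9 at the lower fold minimum tried, where Afp and Fgb passed. None was apart and higher in replicate 2 under these settings. Between those settings the background of genes higher in replicate 1 ran from 0.444% to 1.98%. The median log2 ratio ran from 0.998 with a pseudocount of 1 to 1.18 with none. The log2 ratio of Ttr changed sign with the scaling, between -0.03 and 0.05. That of Serpinc1 was 1.08 in counts without length, against 1.61 in TPM. At a TPM of 5 in both libraries 6 members were detected, and at 10 there were 5. With posterior means the median share of the major transcript was 89.6%, against 99.1% with the shares as deposited. Without replicate 1 or replicate 2 the summed level was 376 or 603 TPM, and the log2 ratio of Afp to Alb 2.43 or 1.61. Ratios between libraries cannot be recomputed with a library left out. No paired analysis was possible because the series has only 1 group. The lowest member counts were those of replicate 2 for Apoh (135) and F2 (172), and the 95% exact intervals of their count ratios were 1.83 to 2.77 and 1.99 to 2.86.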

Other observations

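Clotting genes differed in level: F10 stood at 30.1 ± 9.20 TPM and Proz at 15.4 ± 3.73 TPM, while F7 was at 0.140 ± 0.0283 TPM (SD, n = 2). Factor B (Cfb) at 86.9 ± 6.46 TPM, factor I (Cfi) at 68.6 ± 2.79 TPM and C2 at 26.7 ± 5.74 TPM led the complement list, whereas the lectin Mbl2 was at 0.120 ± 0.0283 TPM. Of 8 compared complement genes, only C3 was apart, at 6.98 TPM in replicate 1 and 4.21 TPM in replicate 2. The plasma inhibitors Serpina3k, Mug1 and Mug2 had no count in either library.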
